A study of Homo sapiens with 26 samples.

Results

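The genes described are those of the spliceosome and of the heterogeneous nuclear ribonucleoproteins (hnRNPs), chosen by symbol alone: every gene of the deposited count tables named SNRP, LSM, SF3A, SF3B, SRSF, HNRNP, PRPF or U2AF with the usual number or letter, which gave 91 of 26485 genes. The symbols did not use any measured value. Genes named SNRNP do not match this rule and stand in a separate list. Of the 91 genes, 83 had enough counts to be tested, and the same 83 were tested in cell culture and in xenografts. The 8 that were not tested were HNRNPA1P33, HNRNPA3P1, HNRNPKP3, SNRPD2P2 and HNRNPCL1 to HNRNPCL4, whose highest count in any library was 19.

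RNA had been sequenced from KELLY, a human neuroblastoma cell line that carries extra copies of MYCN, with the doxycycline-inducible lentiviral vector FH1UTG, either empty (EV) or with a hairpin labelled sh4 or shAMB, aimed at RUNX1T1, a transcriptional co-repressor of the ETO family. Each of these 3 lines had received DMSO or doxycycline for 72 h, with 3 libraries in each of the 6 groups, and EV was the control for doxycycline itself. A further 8 libraries came from KELLY tumours grown under the skin of NOD SCID gamma mice, 4 labelled Control (control food) and 4 labelled RUNX1T1 KO (doxycycline food). The study's text describes the tumours as carrying its first hairpin, which it bases on an Ambion siRNA sequence, while the sample labels of the tumours name none. The label KO is kept here although the study's methods describe an induced hairpin rather than a deletion. The count columns name the treatment only as Neg or Pos, taken here to mean DMSO and doxycycline, so that every direction given for cultured cells depends on this meaning. Nothing in the labels says that the 3 libraries of a culture group came from separate cultures, so that p-values there measure the spread between these libraries, which may be technical. Nor do the labels say that the 4 libraries of a xenograft group came from separate tumours or animals, and the same limit holds there.

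Each library held between 35115915 and 62378060 counts. RUNX1T1 itself ranged from 39.9 to 42.0 CPM (counts scaled to library size) in shAMB cells with DMSO and from 41.3 to 44.1 CPM with doxycycline, and its change passed the test in none of the 3 lines and not in the tumours (edgeR adjusted p from 0.117 to 0.672). Against the change in EV cells, RUNX1T1 was higher with shAMB (log2 difference 0.21 ± 0.0775 SE, adjusted p = 0.0353). The groups are therefore called by their labels and not by a level of knockdown in RNA. The study itself reported lower RUNX1T1 levels in KELLY cells with both its hairpins after 72 h of doxycycline. It also reported loss of RUNX1T1 by immunostaining in tumours with the hairpin induced. Protein is not measured by these libraries. The 8 marker genes of sympathetic neuroblasts were all above 1 CPM in every group, whereas the summed level of 5 endothelial markers stayed at or below 2.27 CPM and that of 6 leukocyte markers at or below 2.72 CPM. Of 6 fibroblast or stroma markers 3 to 4 were above 1 CPM in each group, with PDGFRB the highest. Their summed level was 48.5 to 82 CPM in Control and 74.9 to 116 CPM in RUNX1T1 KO tumours, 78 to 103 and 90.5 to 131 CPM in sh4 cells with DMSO and doxycycline, and 71.8 to 85.9 and 83.1 to 102 CPM in shAMB cells. These ranges overlap within each pair, and their part in the results was not tested. The libraries differed in how their counts followed the guanine and cytosine (GC) content of the genes. Across 13573 genes the correlation of GC content with a library's deviation from the mean ran from -0.619 to -0.411 in the 3 shAMB libraries with DMSO and from 0.148 to 0.394 in the 3 with doxycycline, so that this property moved with the shAMB comparison. In sh4 cells the same correlation ran from -0.0793 to 0.596 with DMSO and from -0.375 to 0.447 with doxycycline, where doxycycline replicate 3 was the only one of its group above 0. For genes of the symbol rule, values after removal of the GC and gene length trends are therefore given beside many results. These include results whose direction or call they change, though not every such result, and some that they only resize.

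The spliceosome removes introns from precursor messenger RNA. Its small nuclear ribonucleoproteins (snRNPs) each hold a small nuclear RNA on a ring of Sm or LSM proteins together with proteins of their own, U1 recognises the 5′ splice site, U2 with SF3A, SF3B and U2AF recognises the branch point and the 3′ end of the intron, and U4, U5 and U6 join as a tri-snRNP that holds many of the PRPF proteins. SR proteins (SRSF) and hnRNPs bind the transcript beside this machinery and often act against each other in the choice of splice sites. In tumours with high MYC or MYCN the demand for splicing is known to be high.

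MYCN and its relatives bind the E-box CACGTG, a sequence that reads the same on both strands, so promoters were searched for it. RefSeq (GRCh38.p14) gave a promoter for 74 of the 91 genes, reaching from 250 bases before to 50 bases after the start site. The E-box was present in 8 of these 74 (10.8%), in 10% of the promoters of all genes tested in cell culture that had an entry, and in 7.26% of all 35116 promoters. The matches were uneven among the families: 7 of the 8 were in hnRNP genes, of which 20 tested genes had a promoter (35%), 1 was in SF3B1, and none was in an Sm, LSM, PRPF, U2AF or SR gene. Among the genes that fell in shAMB cells 6 of 39 promoters held it (15.4%), against 1 of 12 among those that rose (8.33%) and 1 of 20 among the rest (5%). The order was the reverse in the xenografts, with 1 of 27 promoters (3.7%) among the genes that fell and 7 of 41 (17.1%) among those not called, and with sh4, with 1 of 13 (7.69%) and 7 of 52 (13.5%). A match is a description of these letters and no site of binding. Shown are the 100 bases before the start site of the 5 hnRNP genes with an E-box within that distance, and of LSM4 and PRPF38A, which fell furthest together with HNRNPUL1 and have none. Each is written 5′ to 3′ on the strand of the gene, with the E-box in capitals.
HNRNPA3 (chr2:177212694-177212793, plus strand): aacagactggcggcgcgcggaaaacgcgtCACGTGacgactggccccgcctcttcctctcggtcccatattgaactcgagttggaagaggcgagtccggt
HNRNPD (chr4:82373992-82374091, minus strand): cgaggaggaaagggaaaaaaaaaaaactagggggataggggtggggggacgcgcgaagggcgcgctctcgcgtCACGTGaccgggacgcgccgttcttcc
HNRNPH3 (chr10:68331593-68331692, plus strand): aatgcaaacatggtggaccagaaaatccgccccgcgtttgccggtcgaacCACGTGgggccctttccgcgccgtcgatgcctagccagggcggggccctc
HNRNPM (chr19:8444875-8444974, plus strand): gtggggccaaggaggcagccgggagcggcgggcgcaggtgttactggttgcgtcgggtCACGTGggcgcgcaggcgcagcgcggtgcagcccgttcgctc
HNRNPH2 (chrX:101408122-101408221, plus strand): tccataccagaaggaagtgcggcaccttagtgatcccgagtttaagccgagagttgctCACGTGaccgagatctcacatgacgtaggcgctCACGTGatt
LSM4 (chr19:18323077-18323176, minus strand): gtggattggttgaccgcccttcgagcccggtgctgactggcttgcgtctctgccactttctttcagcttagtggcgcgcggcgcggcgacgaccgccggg
PRPF38A (chr1:52404502-52404601, plus strand): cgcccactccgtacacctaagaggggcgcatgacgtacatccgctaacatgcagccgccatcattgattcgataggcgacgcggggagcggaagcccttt
The E-box begins 71 bases before the start site in HNRNPA3, 27 in HNRNPD, 50 in HNRNPH3, 42 in HNRNPM, and at both 42 and 9 in HNRNPH2. In HNRNPDL it lies 156 bases before the start site and in HNRNPUL1 23 bases after it.

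These genes were among the more abundant of the cell. Their median level was 189 CPM in culture against 20.4 CPM over all genes tested, and together they held 3.29% ± 0.0598 (SD, n = 3) of the counts in EV cells with DMSO. With doxycycline their share was 3.23% ± 0.0336 in EV and 3.11% ± 0.0974 in sh4 cells, the latter against 3.16% ± 0.0761 with DMSO. In shAMB cells the 3 shares ran from 3.28% to 3.34% with DMSO and from 2.91% to 3.03% with doxycycline, without overlap. The shares in the xenografts were lower than in culture, at 2.00% ± 0.158 (SD, n = 4) in Control and 1.87% ± 0.0843 in RUNX1T1 KO tumours, and these 2 groups overlapped. Scaled by gene length, the highest level in EV cells with DMSO was that of HNRNPA1, at 1740 ± 19.9 CPM per kilobase (SD, n = 3), followed by HNRNPA2B1 at 1120 ± 54.0. On the same scale the most abundant gene of each other family was SRSF2 at 348 ± 14.7, SF3B6 at 250 ± 6.95, SNRPD2 at 213 ± 26.3, U2AF1 at 164 ± 8.16, LSM3 at 143 ± 10, SNRPC at 113 ± 4.45 and PRPF8 at 105 ± 7.40 CPM per kilobase, of which only SNRPC and PRPF8, next to each other in this order, lay closer than the sum of their SDs. HNRNPA1 has 74 annotated pseudogenes in GENCODE, SNRPG 20, SNRPC 18, HNRNPA3 16 and SNRPE 10, and how reads were split between these and the gene was not tested.

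In cultured EV cells doxycycline alone moved none of these genes past the threshold, while many were lower with the shAMB hairpin and in the xenograft comparison. No library came from a tumour with the empty vector, so in the xenografts doxycycline food and the hairpin cannot be told apart. In EV cells 0 of 83 passed in edgeR (adjusted p under 0.05; 0.0939% of all genes tested did), 0 passed in DESeq2, and 3 had an unadjusted p under 0.05. With sh4, 17 genes fell (20.5%, against 18% of all genes) and 9 rose (10.8%, against 22.9%), and the median log2 fold change was -0.03, against -0.01 over all genes. With shAMB, 46 fell (55.4%, against 28.4%) and 13 rose (15.7%, against 37.6%), and the median was -0.20, against 0.10 over all genes. In the xenografts 31 fell (37.3%, against 19.9%) and 4 rose (4.82%, against 21.2%), with a median of -0.21, against 0.02 over all genes. The changes were mostly small. At least 2-fold and past the test were 0 genes with sh4 (5.03% of all genes), 4 with shAMB (17.9%) and 4 in the xenografts (12.5%).

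**Figure D1:**
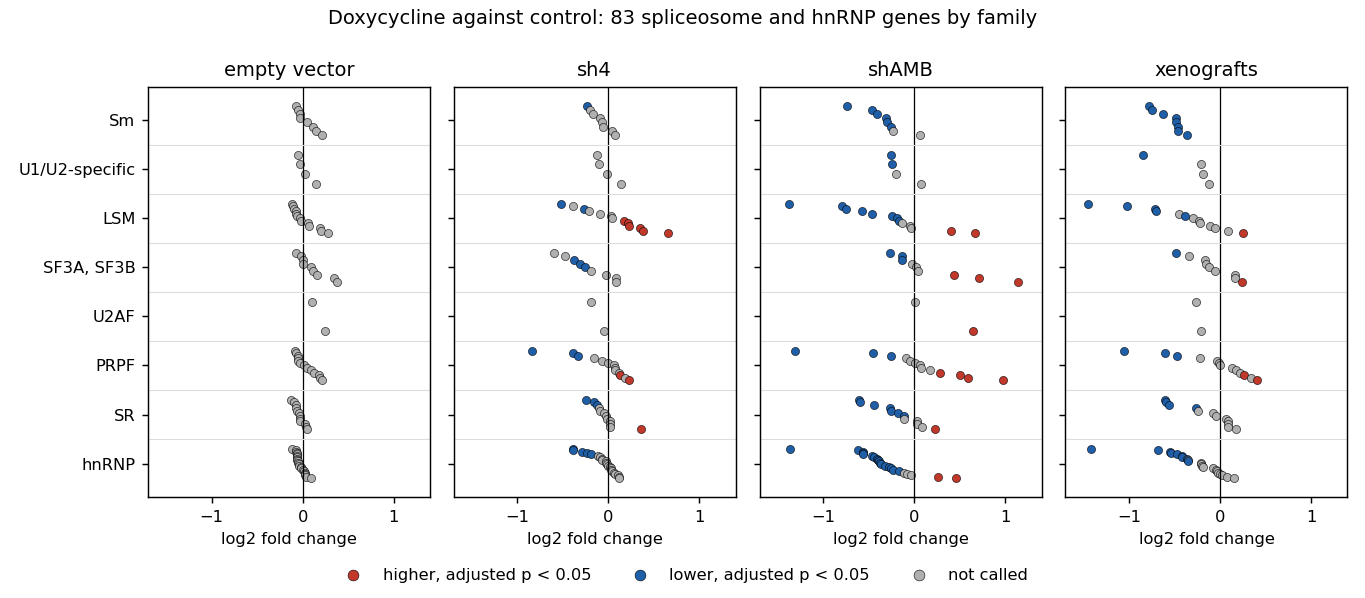
Log2 fold change (x axis) of each of the 83 tested genes in doxycycline against DMSO for the empty vector, sh4 and shAMB lines and in RUNX1T1 KO against Control xenografts, by family (y axis); each point is 1 gene, blue where it fell and red where it rose past an edgeR adjusted p of 0.05. The empty vector points are all grey, whereas 6 of 8 Sm genes and 17 of 22 hnRNP genes are blue with shAMB and all 8 Sm genes are blue in the xenografts.

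Against the change that doxycycline gave in EV cells, the change in shAMB cells was lower for 35 genes (42.2%, against 21.7% of all genes) and higher for 6 (7.23%, against 23.7%). The sh4 change was lower than the EV change for 13 genes (15.7%, against 14.7%) and higher for 8 (9.64%, against 17.8%). These comparisons share the EV libraries. Set against each other, the sh4 change was higher than the shAMB change for 36 genes (43.4%, against 27.8%) and lower for 15 (18.1%, against 33.1%). The median GC content of the transcripts was 55.4% for the 13 genes that rose with shAMB, 41.8% for the 46 that fell and 43.8% for the others. After the GC and length trends of each library were removed, 49 genes were lower with shAMB and 16 higher, with a median of -0.16. Over all genes tested 5578 were lower and 4368 higher in that fit (median -0.05), against 4238 and 5602 with the counts as deposited. Of the 46 that fell, 38 were lower in that fit too, and of the 13 that rose, 6 were higher. The remaining calls included 4 that switched, namely PRPF8 and U2AF2 from higher to lower and SF3B6 and SRSF5 from lower to higher. With the same removal 45 genes were lower and 2 higher in the xenografts, among them 30 of the 31 that fell. Over all genes the removal moved the xenograft calls in the same direction, from 3173 lower and 3382 higher to 4951 and 3091.

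**Figure D2:**
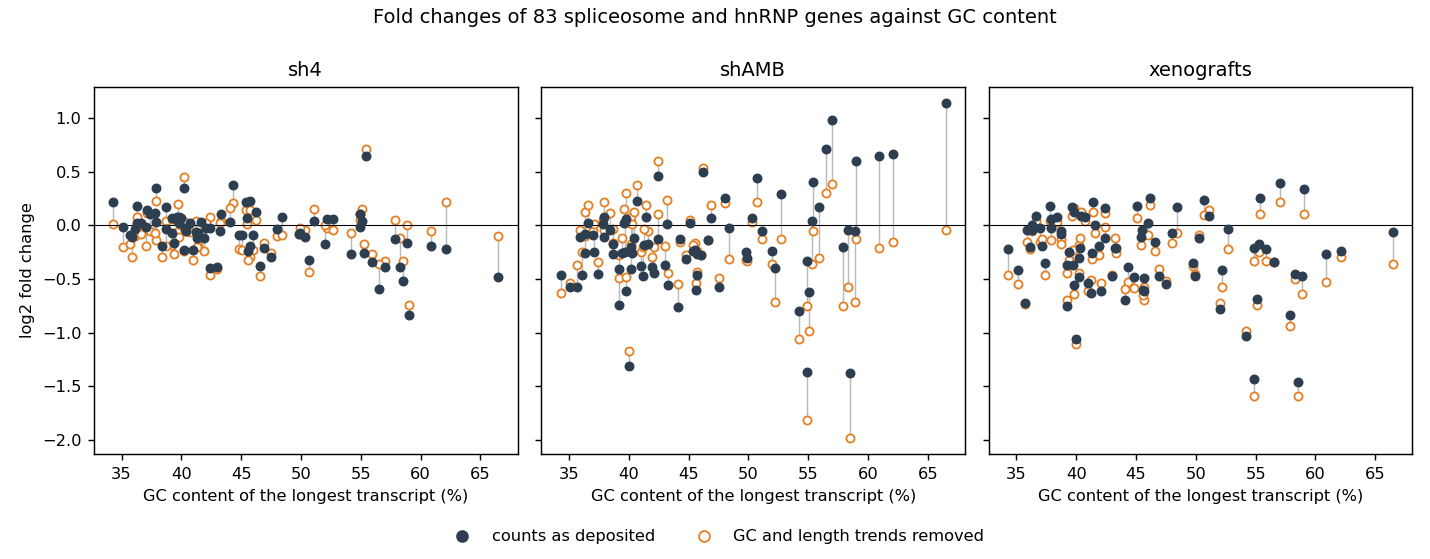
Log2 fold change (y axis) of the 83 genes against the GC content of their longest transcript in percent (x axis) with sh4, with shAMB and in the xenografts; filled points are from the counts as deposited, open points from the fit with GC and length trends removed, and a line joins both values of a gene. With shAMB the genes above 55% GC moved furthest between the fits, as SF3A2 from 1.14 to -0.04, while LSM4 and HNRNPUL1 were lower in both.

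The Sm genes, which encode the ring on U1, U2, U4 and U5 small nuclear RNA, fell together in the xenografts, where all 8 passed the test with a median log2 fold change of -0.48. Of these calls, that of SNRPB was kept in 12 of 17 alternatives and that of SNRPG in only 5. With shAMB 6 of 8 fell (median -0.31) and with sh4 1 of 8, SNRPD1. With the GC and length trends removed, 7 were lower in the xenografts and 6 with shAMB, and with sh4 2 were lower and 1 higher. Of the 6 with shAMB, 5 had also fallen in the counts as deposited. SNRPE changed most with shAMB: it stood at 294, 325 and 302 CPM with DMSO and at 195, 191 and 166 CPM with doxycycline. The 2 groups did not overlap (log2 fold change -0.74 ± 0.0759 SE, edgeR adjusted p = 4.8e-07). In Control tumours SNRPE was at 197, 143, 176 and 170 CPM and in RUNX1T1 KO tumours at 95.7, 93.9, 104 and 114 CPM, again apart (-0.75 ± 0.109 SE, adjusted p = 0.000368). With sh4 its values of 257, 282 and 283 CPM with DMSO and 311, 298 and 254 CPM with doxycycline overlapped, and the 95% interval of the log2 fold change was -0.09 to 0.23.

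SNRPD2, the most abundant Sm gene by length, had the largest fall of the family in the xenografts, from 129, 121, 150 and 147 CPM to 91.4, 68.8, 84.8 and 73.4 CPM (-0.78 ± 0.112 SE, edgeR adjusted p = 0.000333). With shAMB its change of -0.24 did not pass (adjusted p = 0.0507). SNRPF fell from 133, 140 and 133 CPM to 102, 102 and 89.6 CPM with shAMB (-0.47 ± 0.057 SE, adjusted p = 3.39e-06), which was -0.20 with the GC and length trends removed. In Control tumours SNRPF was at 63.2, 44.3, 63.5 and 65.0 CPM and in RUNX1T1 KO tumours at 40.7, 34.9, 39.7 and 37.6 CPM, also apart (-0.63 ± 0.125 SE, adjusted p = 0.00234). SNRPD1 was the only Sm gene that passed in the same direction with sh4 (-0.23 ± 0.0571 SE), shAMB (-0.41 ± 0.0572) and in the xenografts (-0.48 ± 0.102), and its shAMB value was -0.17 with the trends removed. SNRPN, the neuronal form of SNRPB, fell with shAMB (-0.30) and in the xenografts (-0.47), but 43.9% of its exon bases are shared with another gene on the same strand. SNRPB did not pass with shAMB (0.07, adjusted p = 0.638) and fell in the xenografts (-0.47). SNRPG fell in both (-0.25 and -0.37), and neither call remained after the GC and length trends were removed (0.02 and -0.23).

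Of the 4 genes for proteins particular to U1 (SNRPA, SNRPC) and U2 (SNRPA1, SNRPB2), SNRPA changed most and passed in the xenografts, where 56.1, 68.0, 83.1 and 84.3 CPM in Control tumours did not overlap 51.3, 38.8, 42.2 and 30.0 CPM in RUNX1T1 KO tumours (-0.84 ± 0.171 SE, edgeR adjusted p = 0.00264). With shAMB its change of -0.20 did not pass (adjusted p = 0.086), and was -0.75 and past the test once the GC and length trends were removed. SNRPA1 fell with shAMB from 100, 104 and 100.8 CPM to 87.3, 87.2 and 80.7 CPM (-0.26 ± 0.055 SE, adjusted p = 0.000756). SNRPB2 fell from 119.5, 131 and 120 CPM to 108, 108 and 96.3 CPM (-0.25 ± 0.0673 SE, adjusted p = 0.00429), and both values were near 0 (0.01 and 0.01) after the GC and length trends were removed. SNRPC, which helps U1 to hold the 5′ splice site, passed in none of the comparisons within a line, at -0.11 with sh4, 0.07 with shAMB and -0.12 in the xenografts.

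The LSM genes held the largest fall of all 83. LSM2 to LSM8 form the ring on U6, and with LSM1 in place of LSM8 the ring takes part in messenger RNA decay in the cytoplasm. Of 13 LSM genes 8 fell and 2 rose with shAMB (median -0.20), 5 fell and 1 rose in the xenografts (median -0.30), and 2 fell and 6 rose with sh4 (median 0.04). LSM4 (chr19:18306236-18323076, GRCh38.p14) fell in all 3. It was at 99.1, 89.1 and 103 CPM in shAMB cells with DMSO and at 36.5, 39.7 and 35.7 CPM with doxycycline (-1.38 ± 0.0789 SE, edgeR adjusted p = 6.7e-10). In Control tumours it was at 64.1, 62.7, 73.9 and 73.6 CPM and in RUNX1T1 KO tumours at 30.2, 23.2, 26.4 and 20.2 CPM (-1.46 ± 0.129 SE, adjusted p = 2.22e-05). The sh4 libraries gave 114, 117 and 108 CPM with DMSO and 75.6, 76.8 and 83.7 CPM with doxycycline (-0.52 ± 0.0768 SE, adjusted p = 5.43e-05). The groups were apart in each of these pairs. In EV cells 85.2, 108 and 102 CPM with DMSO lay below 111, 115 and 112 CPM with doxycycline, a change in the other direction that did not pass (0.20, adjusted p = 0.672). The fall with shAMB was the larger of the 2 hairpins by 0.86 ± 0.109 SE (adjusted p = 8.11e-06).

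LSM2, LSM3 and LSM5, further members of the U6 ring, fell with shAMB by 0.80, 0.76 and 0.57 and in the xenografts by 1.03, 0.70 and 0.72 on the log2 scale, and each kept its call in every alternative fit in both. LSM3 was at 104.5, 113 and 105 CPM in shAMB cells with DMSO and at 65.7, 68.0 and 57.2 CPM with doxycycline (SE 0.0844, adjusted p = 1.25e-06). LSM5 was at 160, 178 and 160 CPM and then at 118, 116 and 101.2 CPM (SE 0.0748, adjusted p = 6.91e-06). In both genes the groups were apart, as they were in the tumours (adjusted p = 0.00212 for LSM3 and 0.000314 for LSM5). LSM2 was at 46.9, 47.7 and 54.5 CPM in shAMB cells with DMSO against 28.2, 28.7 and 28.7 CPM with doxycycline, and at 41.9, 34.2, 43.6 and 42.7 CPM in Control against 21.2, 19.0, 19.1 and 20.4 CPM in RUNX1T1 KO tumours. It was thus lower in every induced library than in any of its controls. With sh4 it fell by 0.27 (adjusted p = 0.00242), a call that was lost with the GC and length trends removed. LSM8, which marks the U6 form of the ring, fell with shAMB (-0.46 ± 0.0717 SE, adjusted p = 3.86e-05) and rose with sh4 (0.22 ± 0.0713 SE, adjusted p = 0.0193). LSM6 fell with shAMB (-0.20 ± 0.0807 SE, adjusted p = 0.0435) and rose with sh4 (0.35 ± 0.08 SE, adjusted p = 0.00238). The sh4 call of LSM8 was lost in 11 of 16 alternatives and the shAMB call of LSM6 in 8 of 16. LSM7 rose with shAMB (0.67, adjusted p = 0.0382). The shAMB values of LSM6 and LSM7 turned to 0.08 and -0.15 with the GC and length trends removed. LSM14B, a relative of the P-body protein LSM14A, was one of 2 genes that rose in all 3. It went from 55.9, 53.2 and 46.6 to 77.6, 77.1 and 90.1 CPM with sh4 (0.65 ± 0.0727 SE, adjusted p = 3.12e-06). Its shAMB rise of 0.41 turned to -0.05 with the trends removed, and its xenograft rise of 0.26 (adjusted p = 0.0448) was lost in 15 of 17 alternatives. LSM11, a part of the U7 snRNP that processes histone transcripts, rose with sh4 (0.38) and fell in the xenografts (-0.39).

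**Figure D3:**
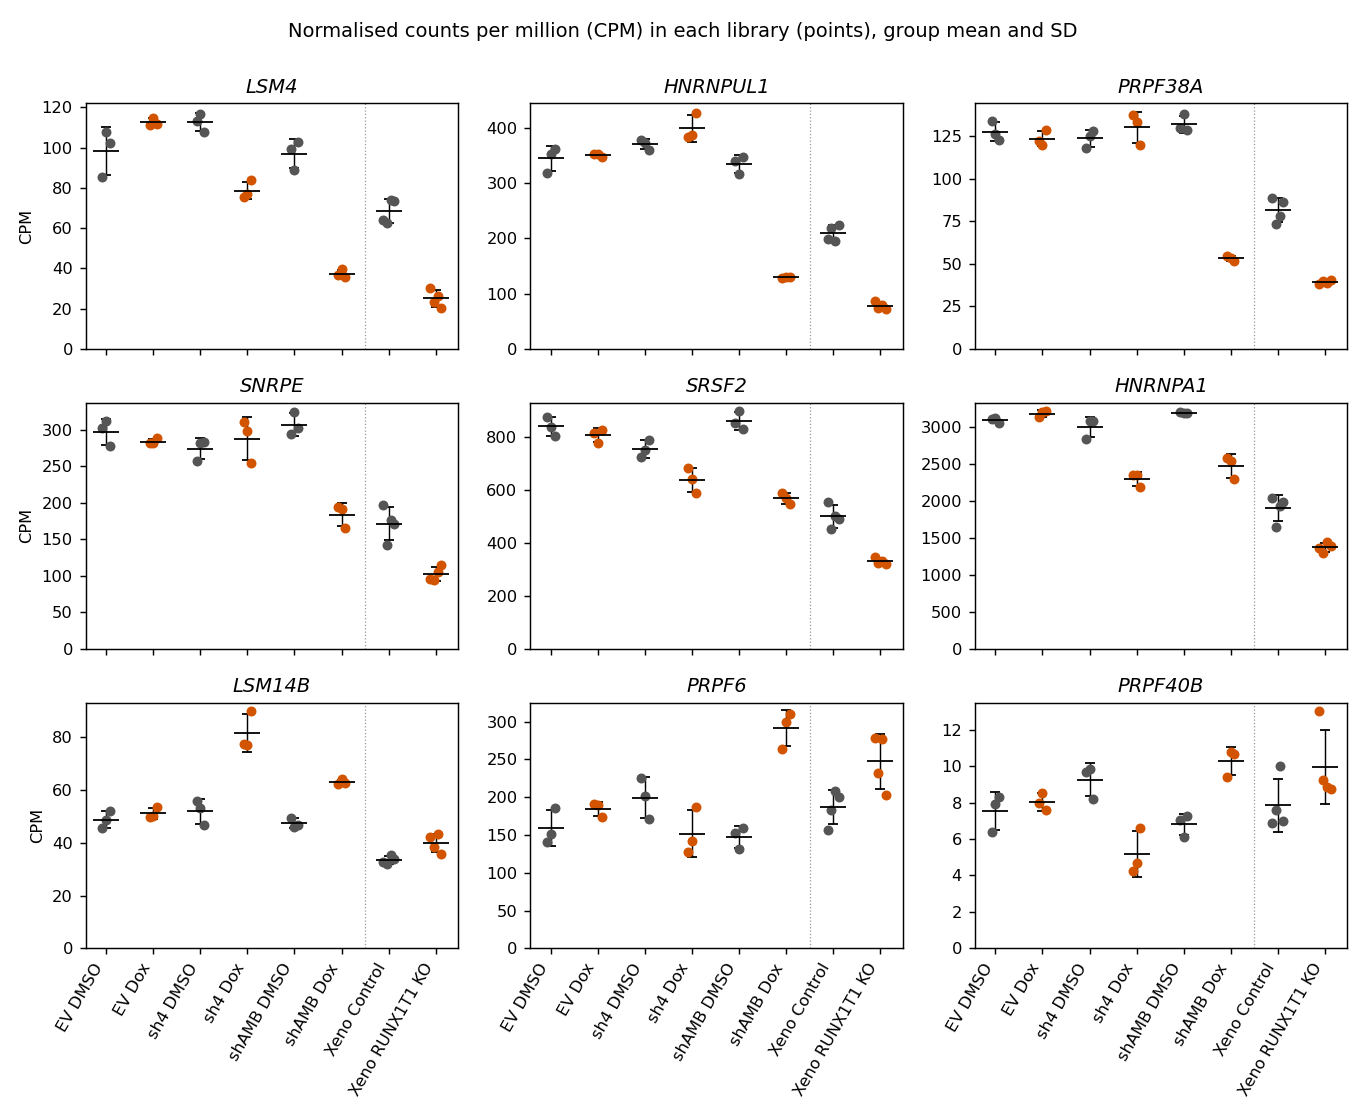
Normalised CPM (y axis, from 0) of 9 genes in each of the 26 libraries, by group (x axis); points are libraries, grey with DMSO or control food and orange with doxycycline, and bars give the group mean and SD. LSM4, HNRNPUL1 and PRPF38A lie lower in shAMB cells with doxycycline and in RUNX1T1 KO tumours than in any of their controls, while in sh4 cells PRPF38A overlaps and HNRNPUL1 with doxycycline lies slightly above DMSO.

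SF3A and SF3B place U2 on the branch point. With shAMB 3 of these 9 genes rose and 3 fell (median 0.02), with sh4 3 fell, and in the xenografts 1 rose and 1 fell. SF3A2 rose most of all 83 genes with shAMB, from 14.6, 11.3 and 15.7 CPM to 25.6, 30.5 and 35.4 CPM (1.14 ± 0.292 SE, edgeR adjusted p = 0.00297). It also has a GC content of 66.5%, and its value was -0.04 once the trends were removed. In sh4 cells SF3A2 was at 35.4, 27.2 and 20.2 CPM with DMSO and at 13.1, 15.7 and 30.9 CPM with doxycycline, a range within each group that was wider than the shift between their means. SF3B5 rose with shAMB by 0.71 (adjusted p = 0.0474), a call lost in 13 of 16 alternatives. SF3A1 moved in opposite directions with the hairpins: from 344, 325 and 315 CPM down to 246, 260 and 283 CPM with sh4, and from 290, 268 and 305 CPM up to 378, 397 and 397 CPM with shAMB. Neither pair overlapped, both of these calls held in every alternative, and the 2 changes differed by 0.76 ± 0.0917 SE on the log2 scale (adjusted p = 4.71e-06). SF3A3 and SF3B4 fell with sh4 by 0.38 and 0.26. SF3B2 fell with shAMB (-0.27) and in the xenografts, there from 228, 233, 258 and 269 CPM to 184, 178, 191 and 153 CPM (-0.49 ± 0.0958 SE, adjusted p = 0.00227). SF3B1, the subunit that clasps the branch point, did not pass with sh4 (0.08), with shAMB (0.02) or in the xenografts (0.17).

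U2AF1 and U2AF2 read the end of the intron. U2AF1, whose product contacts the terminal AG, did not pass in the counts as deposited, at -0.05 with sh4, 0.01 with shAMB and -0.21 in the xenografts. With the GC and length trends removed it was called higher with shAMB, and 1 of the 2 genes was lower in the xenografts. U2AF2, for the subunit on the polypyrimidine tract, rose with shAMB from 123, 98.1 and 131 CPM to 155, 190 and 207 CPM (0.65 ± 0.231 SE, edgeR adjusted p = 0.0218), and was lower by 0.21 with the GC and length trends removed (adjusted p = 0.00133). No direction is therefore given for it.

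Among the 13 PRPF genes, 4 rose and 3 fell with shAMB, 2 rose and 3 fell in the xenografts, and 2 rose and 3 fell with sh4. With the GC and length trends removed, 4 were higher and 7 lower with shAMB. In that fit 2 were higher and 6 lower in the xenografts, and the same numbers with sh4. PRPF38A (chr1:52404602-52420836), which joins the spliceosome just before its activation, fell from 130, 138 and 129 CPM to 54.6, 53.3 and 51.7 CPM with shAMB (-1.31 ± 0.0546 SE, edgeR adjusted p = 1.8e-11). In Control tumours PRPF38A stood at 89.0, 73.7, 78.2 and 86.2 CPM and in RUNX1T1 KO tumours at 38.4, 39.7, 38.7 and 40.6 CPM (-1.06 ± 0.0854 SE, adjusted p = 1.21e-05). With sh4 its 118, 125 and 128 CPM overlapped with 137, 134 and 120 CPM (0.07, 95% interval -0.04 to 0.19), and the hairpins differed by 1.39 ± 0.076 SE (adjusted p = 9.93e-10). The genes for the U4 and U6 proteins did not move as one. PRPF4 fell with shAMB from 53.5, 54.0 and 55.04 CPM to 38.6, 40.9 and 38.7 CPM (-0.46 ± 0.0394 SE, adjusted p = 6.61e-08) and rose with sh4 from 54.8, 57.0 and 55.7 CPM to 65.3, 65.2 and 66.1 CPM (0.23 ± 0.039 SE, adjusted p = 0.000189). In the xenografts it fell by 0.61 (adjusted p = 0.000691). PRPF3 rose with shAMB (0.50), with sh4 (0.13) and in the xenografts (0.26). Its call was kept in only 3 of 16 alternatives with sh4 and in 8 of 17 in the xenografts. PRPF31 did not pass with shAMB (-0.05) and fell in the xenografts (-0.47, adjusted p = 0.0459), where 7 of 17 alternatives lost the call. Of its exon bases, 31.3% lie opposite other genes, TFPT among them.

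PRPF6, a bridge between the parts of the tri-snRNP, and PRPF40B, related to a U1 protein that spans the intron, had the widest gaps between the hairpins among the genes called in opposite directions. PRPF6 was at 225, 202 and 172 CPM in sh4 cells with DMSO and at 127, 142 and 187 CPM with doxycycline, groups that overlapped (-0.39 ± 0.136 SE, edgeR adjusted p = 0.029). PRPF6 lost this call in 6 of 16 alternatives. In shAMB cells it rose from 152, 132 and 159 CPM to 264, 300 and 310 CPM (0.98 ± 0.137 SE, adjusted p = 1.36e-05), and the rise was 0.39 with the trends removed. The 2 changes differed by 1.37 ± 0.192 SE (adjusted p = 2.15e-05). PRPF40B, at under 15 CPM in every library, fell with sh4 from 9.67, 9.85 and 8.20 CPM to 4.23, 4.67 and 6.6 CPM (-0.84 ± 0.147 SE, adjusted p = 0.000254). With shAMB it was at 7.02, 6.13 and 7.25 CPM and then at 9.38, 10.8 and 10.7 CPM (0.60 ± 0.145 SE, adjusted p = 0.00205), which turned to -0.13 with the trends removed. In addition, 48.7% of its exon bases lie opposite FAM186B or FMNL3, and whether counting used the strand is not given in the sources used here. PRPF8, the core of the U5 snRNP, rose with shAMB (0.29) and was lower (-0.13) with the trends removed. PRPF19, for a ubiquitin ligase of the active spliceosome, fell with sh4 (-0.34) and had 0.17 with shAMB (adjusted p = 0.222).

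The SR genes, for activators of exon inclusion, mostly fell where they changed in the counts as deposited. With shAMB 7 of 12 fell and 1 rose (median -0.15), in the xenografts 4 fell, and with sh4 3 fell and 1 rose. Once the GC and length trends were removed, 5 were lower and 4 higher with shAMB (median -0.04). In that fit 5 were lower in the xenografts, and 8 were lower and 1 higher with sh4. SRSF2 fell in all 3. Its values were 853, 898 and 831 CPM in shAMB cells with DMSO and 588, 569 and 545 CPM with doxycycline (-0.60 ± 0.0557 SE, edgeR adjusted p = 1.59e-07). Tumours gave 555, 452, 500 and 491 CPM in Control and 348, 324, 331 and 318 CPM in RUNX1T1 KO (-0.60 ± 0.0885 SE, adjusted p = 0.000417). With sh4 it went from 723, 752 and 789 CPM to 682, 641 and 589 CPM (-0.24 ± 0.0556 SE, adjusted p = 0.00232). No induced library of these 3 pairs reached its controls, though 27.7% of the exon bases of SRSF2 lie opposite MFSD11. SRSF6 fell from 474, 485 and 471.5 CPM to 320, 317 and 302 CPM with shAMB (-0.61 ± 0.0476 SE, adjusted p = 2.36e-08) and by 0.56 in the xenografts (adjusted p = 0.000555), and had 0.02 with sh4. SRSF9 fell from 253, 237 and 268 CPM to 187, 193 and 178 CPM with shAMB (-0.44 ± 0.0479 SE, adjusted p = 9.05e-07), which was -0.20 with the trends removed. In the xenografts SRSF9 fell by 0.61 (adjusted p = 0.000267), with 43.6% of its exon bases opposite GATC. SRSF7 fell in all 3 (-0.12, -0.18 and -0.26), calls that were lost in 6 of 16 alternatives with sh4, in the 2 of 16 with GC and length trends removed with shAMB, and in 7 of 17 in the xenografts. SRSF1, the best studied of the family, fell with shAMB (-0.27), with -0.03 for sh4 and -0.08 in the xenografts. SRSF4 rose with shAMB (0.23) and SRSF12 with sh4 (0.35).

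The hnRNP genes, whose products coat nascent transcripts and often silence exons, were the largest family and had the largest number of falls. Over all genes tested 28.4% fell with shAMB, 19.9% in the xenografts and 18% with sh4. Of the 22 hnRNP genes tested, 17 fell and 2 rose with shAMB (median -0.37), 9 fell in the xenografts (median -0.21) and 5 fell with sh4 (median -0.02). With the GC and length trends removed 14 were lower with sh4 (median -0.10), 17 with shAMB and 12 in the xenografts. HNRNPUL1 (chr19:41262557-41307787), for a relative of the scaffold protein HNRNPU, moved far beyond the other 21. It was at 340, 317 and 347 CPM in shAMB cells with DMSO and at 128, 130 and 130 CPM with doxycycline (-1.37 ± 0.0523 SE, edgeR adjusted p = 6.26e-12). Control tumours gave 200, 219, 195 and 224 CPM and RUNX1T1 KO tumours 86.5, 74.7, 79.3 and 71.4 CPM (-1.43 ± 0.0899 SE, adjusted p = 4.24e-06). With sh4 it was at 379, 373 and 361 CPM and at 384, 387 and 427 CPM, and the change of 0.11, with each doxycycline library above those with DMSO, did not pass (95% interval -0.00 to 0.21). The 2 hairpins differed by 1.48 ± 0.0729 SE (adjusted p = 2.91e-10), the largest gap of all 83 genes in this direction.

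HNRNPA1, the most abundant of these genes by length and a well-known repressor of exons, fell with both hairpins. It went from 2843, 3083 and 3090 CPM to 2360, 2351 and 2187 CPM with sh4 (-0.39 ± 0.0491 SE, edgeR adjusted p = 1.17e-05) and from 3207, 3195 and 3193 CPM to 2583, 2551 and 2297 CPM with shAMB (-0.37 ± 0.049 SE, adjusted p = 8.19e-06). The difference between the hairpins was -0.02, with a 95% interval of -0.17 to 0.13. With the GC and length trends removed the changes were -0.41 with sh4 and -0.19 with shAMB. In Control tumours it was at 2048, 1653, 1937 and 1990 CPM and in RUNX1T1 KO tumours at 1364, 1293, 1442 and 1395 CPM (-0.47 ± 0.102 SE, adjusted p = 0.00368). HNRNPA1 was lower in every induced library of the 3 pairs than in any control of the same pair. The pseudogene HNRNPA1P10 fell in all 3 as well (-0.29, -0.57 and -0.55), and its counts are uncertain because reads of HNRNPA1 can fall on it. HNRNPA0 fell by 0.23 with sh4, by 0.38 with shAMB and by 0.54 in the xenografts, calls that held in every alternative. HNRNPAB fell from 546, 516 and 543 CPM to 351, 353 and 337 CPM with shAMB (-0.62 ± 0.035 SE, adjusted p = 5.28e-10) and by 0.69 in the xenografts, with 0.04 for sh4. HNRNPR fell from 877, 897.5 and 847 CPM to 613, 605 and 552 CPM with shAMB (-0.57 ± 0.0596 SE, adjusted p = 6.51e-07) and by 0.42 in the xenografts (adjusted p = 0.00428).

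Of the hnRNP genes with an E-box, HNRNPA3 (-0.45), HNRNPD (-0.46), HNRNPDL (-0.28), HNRNPH3 (-0.56) and HNRNPM (-0.33) fell with shAMB and did not pass in the xenografts, where their values lay between -0.35 and 0.02. However, 53.6% of the exon bases of HNRNPA3 lie opposite NFE2L2, and 15.8% of those of HNRNPH2 are shared on the same strand. With the GC and length trends removed the shAMB values of HNRNPD and HNRNPM were -0.25 and -0.75, and HNRNPA3 (-0.46, edgeR adjusted p = 0.00179) and HNRNPH3 (-0.26, adjusted p = 0.0246) passed in the xenografts too. HNRNPUL1 fell in both, and HNRNPH2 rose with shAMB. HNRNPH2 was the only hnRNP gene called in opposite directions with the hairpins. It fell from 128, 121 and 133 CPM to 90.5, 83.2 and 117 CPM with sh4 (-0.40 ± 0.0963 SE, edgeR adjusted p = 0.00373) and rose from 118, 134 and 118 CPM to 167, 170 and 173 CPM with shAMB (0.46 ± 0.096 SE, adjusted p = 0.000566). Neither pair overlapped. In the xenografts its change was 0.16 and did not pass. HNRNPF, a relative of HNRNPH2, rose with shAMB as well (0.26).

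Over both hairpins, 10 genes fell with each (12%, against 7.11% of all genes) and 9 were called in opposite directions (10.8%, against 12.3%). PRPF40B, PRPF6, HNRNPH2 and SF3A1 fell with sh4 and rose with shAMB, and PRPF4, LSM8, LSM6, LSM12 and LSM14A rose with sh4 and fell with shAMB, of which LSM14A was named after its values were seen. For PRPF40B, LSM6, LSM8 and LSM14A the opposition was lost with the GC and length trends removed, since 1 call, or both for LSM14A, no longer passed. LSM12 was at 159, 169 and 173 CPM and then at 204, 196 and 183 CPM with sh4, and at 184, 187 and 177 CPM and then at 161, 153 and 149 CPM with shAMB, with no overlap in either pair. The number of calls with sh4 depended on doxycycline replicate 3, and without that library 40 of the 83 genes passed, 15 higher and 25 lower. Calls over all genes rose as well, to 3968 higher and 4082 lower from 3410 and 2681.

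**Figure D4:**
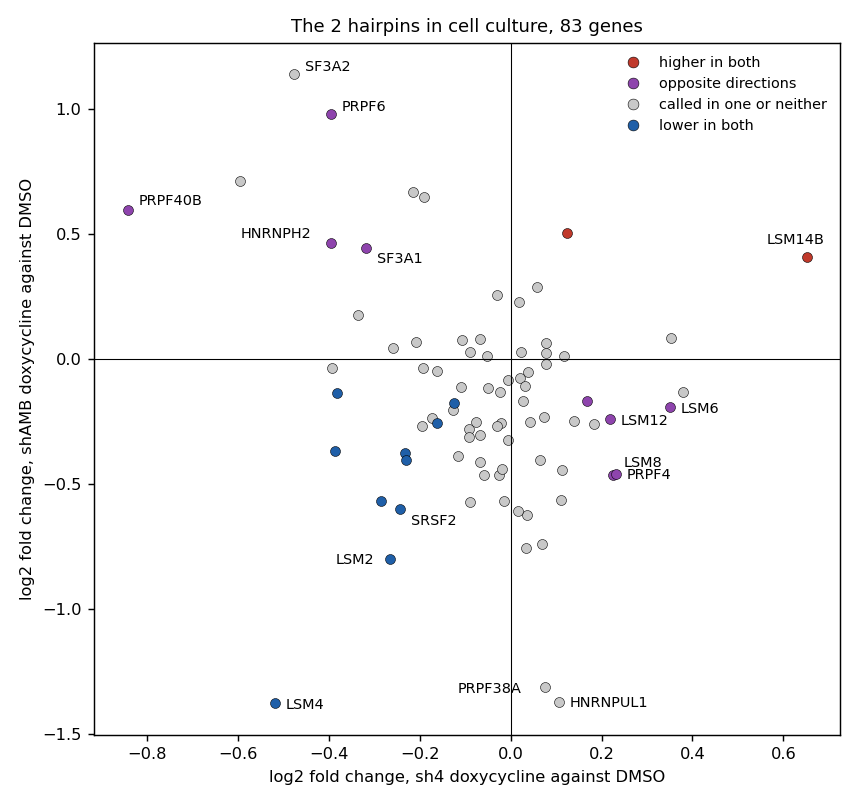
Log2 fold change with doxycycline against DMSO in sh4 cells (x axis) and in shAMB cells (y axis) for the 83 genes; each point is 1 gene, blue or red where it fell or rose past the test with both hairpins, purple where it was called in opposite directions, grey otherwise. HNRNPUL1 and PRPF38A lie far below 0 on the shAMB axis and near 0 on the sh4 axis, while LSM4 is low on both.

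Between shAMB cells and xenografts, which share no library, 26 genes fell in both (31.3%, against 16.7% of all genes tested in both). These were 56.5% of the genes that fell with shAMB and 83.9% of those that fell in the xenografts, and over all genes these shares were 58.2% and 78.2%. A further 4 genes rose in both (4.82%, against 17.2%), namely PRPF6, PRPF3, SF3A1 and LSM14B, and 0 of the 83 were called in opposite directions, as were only 98 of all 14670 genes. None of the 4 rises in the xenografts held in every alternative. The call was lost in 15 of 17 for SF3A1 and for LSM14B and in 9 of 17 for PRPF6 and for PRPF3. The fall was past the test in sh4 cells, shAMB cells and xenografts for 8 genes (9.64%, against 5.03%), which were LSM4, LSM2, HNRNPA1, HNRNPA1P10, HNRNPA0, SRSF2, SRSF7 and SNRPD1. Their sh4 call was kept in all 16 alternatives for HNRNPA0 and in 15 for LSM4 and HNRNPA1. It was kept in 13 for SRSF2 and SNRPD1, in 12 for LSM2, in 10 for SRSF7 and in 8 for HNRNPA1P10. The rise was past the test in all 3 for LSM14B and PRPF3 (2.41%, against 5.93%), where the sh4 call of PRPF3 was kept in only 3 of 16 alternatives. In bulk tumours and cultures fewer cells of a type and less RNA per cell cannot be told apart.

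**Figure D5:**
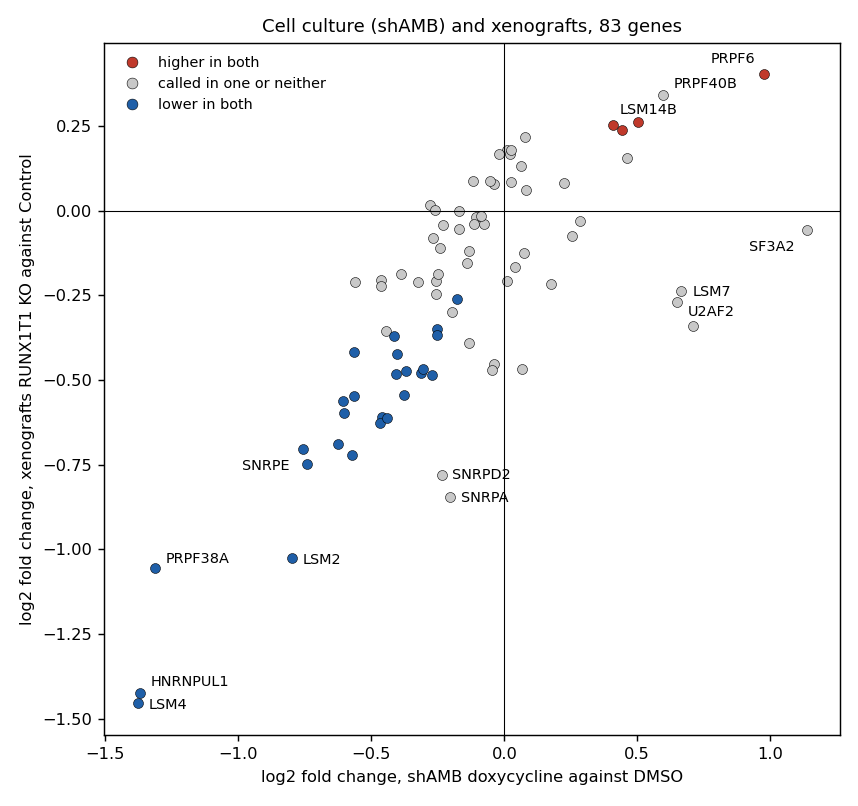
Log2 fold change with doxycycline in shAMB cells (x axis) and in RUNX1T1 KO against Control xenografts (y axis) for the 83 genes; each point is 1 gene, blue or red where it fell or rose past the test in both. LSM4, HNRNPUL1, PRPF38A and LSM2 lie lowest on both axes, and SF3A2, LSM7 and U2AF2 lie high with shAMB but not in the xenografts.

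Genes of the same machinery outside the symbol rule were read from further lists. Over all genes tested 28.4% fell and 37.6% rose with shAMB, 19.9% and 21.2% in the xenografts, and 18% and 22.9% with sh4. The counts of these lists are to be read against those shares. Of 62 other spliceosome proteins 21 fell and 17 rose with shAMB, 18 fell and 8 rose in the xenografts, and 7 fell and 11 rose with sh4. PPIE, a cyclophilin of the spliceosome, fell by 0.91 with shAMB and by 0.84 in the xenografts, and XAB2 had the largest rise with shAMB (1.90 ± 0.36 SE). For the genes of these further lists the dependence on GC content was not examined. Of 18 factors that assemble snRNPs 10 fell and 3 rose with shAMB and 5 fell and 3 rose in the xenografts. CLNS1A, which carries Sm proteins to the assembly machinery, fell by 1.05 and by 0.93, and GEMIN5, which recognises the small nuclear RNA, by 0.85 and by 0.78. Of 38 other splicing regulators 19 rose and 11 fell with shAMB and 11 rose and 6 fell in the xenografts. PTBP2, the neuronal form of the polypyrimidine tract binding protein, rose by 1.83 with shAMB and by 2.07 in the xenografts, while PTBP1, its counterpart in dividing cells, changed by -0.59 and -1.13 (edgeR adjusted p = 0.00151 and 0.000236). ELAVL4, for a neuronal RNA-binding protein, rose by 1.90 and by 1.76. Among 8 kinases of splicing factors SRPK1, which phosphorylates SR proteins, fell by 0.67 in both, and DYRK1A rose by 0.69 and by 0.58. None of the 4 small nuclear RNA genes tested in culture and of the 8 tested in xenografts passed. The 4 in culture had the same log2 fold change in every comparison (0.64 with shAMB), so they do not count as separate measurements.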

How the data were processed

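The deposited tables hold estimated counts (expected counts per gene) and TPM (length-scaled relative abundance) for 18 culture and 8 xenograft libraries. The labels give polyA RNA as the molecule and a stranded total RNA kit, and the submitters' processing notes name STAR, SAMtools, RSEM and the hg38 build, with versions not given for these libraries in the sources used here. Whether counting used strand is not given there either, nor how mouse reads in the xenografts were handled.

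The deposited expected counts were rounded and tested with edgeR 4.0.16 (quasi-likelihood F test, R 4.3.3, TMM factors, filterByExpr by group), in 1 fit over the 18 culture libraries and 1 over the 8 xenograft libraries. A gene was called at a Benjamini-Hochberg adjusted p under 0.05 over all genes tested, 14905 in culture and 15960 in xenografts. CPM are TMM-normalised. The deposited TPM served only for an alternative, limma 3.58.1 on log2(TPM + 1). Other alternatives were DESeq2 1.42.0, other scaling factors, no filter, a replicate block, each line fitted alone, each library left out, and removal of gene length trends. Removal of GC and length trends (splines with 4 degrees of freedom) was added after seeing the data. Scripts were tested on simulated data. GC content came from the longest GENCODE transcript, and positions and promoters from RefSeq.

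Genes were chosen for description by rule, namely the 3 called genes with the largest change of each family with shAMB and in the xenografts, up to 8 genes called alike in sh4, shAMB and xenografts, the 8 with the largest gap among those called oppositely, and the most abundant of each family by length. Other genes are named by their role, and genes outside the families by the 2 largest rises and falls of each list. The members and lists were chosen with earlier results of these data known.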

Additional observations from a re-analysis of the deposited data

Results flagged for a closer look

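The response to doxycycline differed from that of the empty vector line for 21 of the 83 genes with sh4 and for 41 with shAMB, and it differed between sh4 and shAMB for 51 (edgeR, test of the difference itself, adjusted p under 0.05). Of all 14905 genes, 2659 were higher and 2197 lower for sh4 against the empty vector, 3539 and 3237 for shAMB, and 4145 and 4933 for sh4 against shAMB. Among the genes called in opposite directions, the sh4 minus shAMB difference in log2 fold change was -1.44 for PRPF40B, -1.37 for PRPF6, -0.86 for HNRNPH2 and -0.76 for SF3A1. The same difference was 0.69 for PRPF4, 0.69 for LSM8, 0.54 for LSM6 and 0.46 for LSM12. Each difference passed in all 22 alternatives, but not every call behind it did. The sh4 rise of LSM8 was lost in 11 of 16, the shAMB fall of LSM6 in 8 and the sh4 fall of PRPF6 in 6.

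Single xenograft libraries stood far from the rest of their group for 4 of 78 gene and group pairs, and chance alone gives about 1 in 20. Control replicate 2 was lowest for SNRPF (44.3 CPM, the other Control libraries 63.2 to 65), for PRPF4 (41.2 CPM against 50.3 to 52) and for SF3B6 (86.8 CPM against 116 to 120). RUNX1T1 KO replicate 1 was highest for PRPF40B, at 13 CPM against 8.75 to 9.22 CPM.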

How the results depend on the processing

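The count of genes called with shAMB (59) stayed between 51 and 68 in all alternatives, and that for empty vector cells was 0 in each. The count with sh4 (26) was 15 with its own libraries alone and 50 (12 higher, 38 lower) with GC and length trends removed. Calls over all genes moved too, from 3410 higher and 2681 lower to 2181 and 1546 and to 3449 and 4351. Leaving out 1 library gave 20 to 40, the highest without doxycycline replicate 3. Against the empty vector the sh4 count (21) was 41 with GC and length trends removed and ran from 12, without DMSO replicate 1, to 40, without doxycycline replicate 3. The shAMB count against the empty vector (41) was 62 (12 higher, 50 lower) with these trends removed. The xenograft count (35) was 21 (0 higher, 21 lower) on log2(TPM + 1). The causes were not tested. Removing the length trend moved the shAMB median over all genes tested, on the log2 scale, from 0.096 to -0.126, and the calls over all genes from 5602 higher and 4238 lower to 3863 and 6173; among the 83 genes 7 were then higher and 61 lower.

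Same-numbered libraries correlated from -0.555 to 0.359 in their deviation from the group mean. Libraries also differed in how their counts followed GC content (in sh4 cells 0.596 for DMSO replicate 1 and -0.375 for doxycycline replicate 1). These correlations therefore cannot decide whether replicate numbers pair the samples. With a replicate block 17 genes were called with sh4, 13 with the length trend also removed and 43 with GC and length trends removed, and against the empty vector 9, 4 and 34.

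With GC and length trends removed, 9 shAMB changes of the genes chosen by rule turned: SNRPA1 to 0.015, SNRPB2 to 0.009, SF3A2 to -0.043, U2AF2 to -0.214, PRPF40B to -0.134, LSM14B to -0.048, LSM6 to 0.081, SF3B6 to 0.111 and PRPF8 to -0.131. With the replicate block added, SF3A2 was -0.041, PRPF40B -0.137 and LSM6 0.08, and the others were equal to the digits given. The effect of depth was not tested. The genes not tested had too few counts, and PRPF40B was the lowest tested by length.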
